A study of Mus musculus with 226 samples.

Results

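The neurons compared here are the calretinin-rich spiral ganglion neurons of Wildtype mice at postnatal day 26 (P26), taken from 2 places along the cochlea, the Middle and the Base. They were chosen from the counts themselves: Calb2, which encodes the calcium-binding protein calretinin, had to reach 4500 CPM (counts scaled to the total on genes of the cell, in the usual per-million unit) and Lypd1 had to stay below 300 CPM. This kept 24 Middle and 18 Base cells, 42 of the 226 cells of the series, out of 52 Middle and 41 Base Wildtype P26 cells. Each sample is 1 neuron picked by hand for the fluorescent reporter tdTomato and sequenced by Smart-seq2, a full-length single-cell method. Both groups carried the same alleles, bhlhb5::cre/+ and Ai14/+, where Ai14 is the tdTomato reporter allele and the bhlhb5 driver decides which neurons bear it. The sex of the mice is not labelled, and no label names the mouse a cell came from.

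The spiral ganglion carries sound from the hair cells of the cochlea to the brain. Along the cochlea the frequency that excites a fibre best runs from high in the Base to low in the Apex. Within a place, type I neurons are divided into classes Ia, Ib and Ic by their genes, and Calb2 is high in Ia, Calb1 in Ib and Lypd1 in Ic. The Middle and the Base thus sample different frequencies among neurons called Ia-like here, a name that rests on the Calb2 and Lypd1 limits alone.

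Most Ia markers were high in both places, with 1 exception. Calb2 lay between 7590 and 20031 CPM in the Middle cells and between 5640 and 16485 CPM in the Base cells. As the rule used it, these levels are a description. Among cells with little Lypd1, the nearest cells outside the rule had 4094 CPM in the Middle and 3428 CPM in the Base. Of the Ia markers that the rule did not use, Pcdh20 was summed to 172.6 CPM in Middle and 177.5 CPM in Base cells, and Rxrg to 73.4 and 76.6 CPM, so neither stood apart. In the other P26 cells Pcdh20 was at 12.6 and 41.7 CPM and Rxrg at 2.87 and 8.76 CPM. The exception was Cacng5, at 6.57 and 11.0 CPM in the Ia-like cells and higher in the other P26 cells, at 30.1 and 29.5 CPM. The type II marker Prph had no count in any of the 42 cells, and Th, another, was summed to 0.018 CPM in Middle and 0 CPM in Base. The other 2 markers listed for type II, Gata3 at 231 and 392 CPM and Ngfr at 169.5 and 292 CPM, were present in every cell. The Ib marker Lrrc52 had no count, and Lypd1, which the rule used, reached at most 54.1 CPM. Of the other Ic markers Pou4f1 had counts in 1 Middle and 2 Base cells and Grm8 in 1 Base cell. Runx1, listed as a marker of both Ib and Ic, was summed to 3.34 CPM in Middle and 4.08 CPM in Base cells. Single cells held more of it, such as the Middle cell titled 12 with 42.3 CPM and the Base cell titled 372 with 18.5 CPM. The Ib marker Calb1 had counts in 5 Middle and 4 Base cells, at summed levels of 9.52 and 18.5 CPM. Its highest values were 71.9 CPM in the Middle cell titled 90 and 196.8 CPM in the Base cell titled 372. Ttn, another Ib marker, had counts in 8 and 2 cells, at summed levels of 6.85 and 0.591 CPM.

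As no mouse is named, cells of 1 place were not treated as replicates. Each place counts as 1 sample, there is no replicate check, and no test between the places was made. For each place the counts of its cells were added up and scaled to CPM, given with an exact Poisson 95% interval. This interval takes each read as independent and leaves out the spread between cells. As these reads carry no molecular identifiers, it is narrower than the error of the molecules counted. Beside it stand the cell values, the log2 fold of the summed CPM with 1 CPM added to both, and the share of all pairs of a Middle and a Base cell in which the Middle cell was higher, which is 50% where the places are alike.

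Total counts on genes ran from 651345 to 4430060 in Middle and from 2071980 to 5186130 in Base cells, with medians of 8363 and 8178 genes with a count. The libraries of the 2 places also differed in other ways. Spike-in controls took 1.57 to 6.64% of the counts in Middle and 0.229 to 2.77% in Base cells, and only the Base cells titled 464 to 467 lay at 1.41% or above. Ribosomal RNA, read as Rn45s, was at 42163 CPM in Middle and 21015 CPM in Base cells. Y-linked transcripts marked 15 Middle and 7 Base cells and Xist marked 7 and 9, so each place holds cells of both sexes. Markers of other cells were low: the summed level of 10 markers of fibroblasts and vessels was at most 0.385 CPM in a cell, 4 of 5 blood and 6 of 8 immune markers had no count, and so had 6 of 15 glial markers, Sox10 and Mbp among them. The summed glial markers ran from 280 to 1002 CPM in Middle and from 212 to 848 CPM in Base cells, most of it S100b, and those of hair and supporting cells, mainly Fbxo2, from 16.3 to 225 CPM and from 71.9 to 282 CPM, with 5 of 8 at 0. The title numbers of the 2 places do not overlap either: Middle cells are titled 10 to 225 and Base cells 357 to 556. What these numbers stand for is not labelled, so place cannot be told apart from anything that follows them. The part that these differences between the libraries have in the results was not tested.

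Kcnip4, with the largest fold of the genes higher in Middle, belongs to the KChIP family. KChIPs are small calcium-binding proteins that join Kv4 channels, which carry a fast, transient potassium current, and they set how many of these channels reach the membrane and how quickly they inactivate. The family has 4 genes, Kcnip1 to Kcnip4. Hspb8, which led the genes higher in Base, encodes a small heat shock protein that works with the co-chaperone BAG3 in clearing misfolded proteins. To show what lies before the start of these genes, the 250 bases before the outermost RefSeq start (build GRCm38.p6, all on the minus strand, 5′ to 3′) are printed for the KChIP gene higher in Middle, for 2 KChIP genes higher in Base and for Hspb8. Capitals mark GGGCGG or its reverse complement. The windows are chr5:49285660-49285909 for Kcnip4, chr11:33993194-33993443 for Kcnip1, chr19:45816064-45816313 for Kcnip2 and chr5:116422865-116423114 for Hspb8.
Kcnip4: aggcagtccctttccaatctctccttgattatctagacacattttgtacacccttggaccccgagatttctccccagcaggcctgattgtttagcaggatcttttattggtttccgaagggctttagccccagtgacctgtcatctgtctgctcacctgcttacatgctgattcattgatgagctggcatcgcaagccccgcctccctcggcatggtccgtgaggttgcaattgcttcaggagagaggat
Kcnip1: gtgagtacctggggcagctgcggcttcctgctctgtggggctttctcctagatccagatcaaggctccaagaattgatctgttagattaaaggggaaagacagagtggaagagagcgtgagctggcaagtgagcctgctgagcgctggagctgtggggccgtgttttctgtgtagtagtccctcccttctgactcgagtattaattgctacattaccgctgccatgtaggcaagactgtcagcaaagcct
Kcnip2: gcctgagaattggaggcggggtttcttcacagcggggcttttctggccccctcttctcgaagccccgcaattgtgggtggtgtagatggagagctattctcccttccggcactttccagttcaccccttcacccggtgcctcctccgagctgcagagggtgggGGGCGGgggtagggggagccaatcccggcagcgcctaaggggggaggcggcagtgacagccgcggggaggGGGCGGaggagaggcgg
Hspb8: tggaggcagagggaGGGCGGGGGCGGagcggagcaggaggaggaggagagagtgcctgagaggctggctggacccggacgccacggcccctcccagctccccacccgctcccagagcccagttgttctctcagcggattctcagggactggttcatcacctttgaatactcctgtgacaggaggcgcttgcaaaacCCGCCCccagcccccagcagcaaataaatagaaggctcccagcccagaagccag
Both strands were searched for 5 motifs, of which 1 was found, so no overlap between motifs arose. GGGCGG, the core of the GC box, was found at 2 places before Kcnip2 and at 3 before Hspb8, and 32.7% of all 32851 windows in the table hold it. The TATA box, written TATAAA, is held by 12.4% of all windows. The inverted heat shock unit, written GAANNTTC, is held by 6.69% of them. The element of oestrogen-related receptors, written TCAAGGTCA, is held by 0.387%, and the cyclic AMP element, written TGACGTCA, by 1.55%. G and C made up 51.2% of the window of Kcnip4, 52.8% of Kcnip1, 66.8% of Kcnip2 and 64.4% of Hspb8. RefSeq lists 2 starts for Kcnip4 and 3 for Kcnip1, and the counts do not tell which start was used. The GENCODE gene of Kcnip4 reaches beyond the outermost RefSeq start.

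Of 8749 genes with at least 10 CPM in Middle or Base, 303 were higher in Middle (3.46% of those measured) and 229 higher in Base (2.62%) by all size limits. These asked for a log2 fold of at least 1 in the summed CPM and in the mean of log2(CPM + 1) over cells, a count in at least 50% of the cells of the higher place, and a log2 fold of at least 1 when the top cell of each place was left out. The median log2 fold over all measured genes was -0.017. Most contrasts were near the limit, with a median size of 1.35 for genes higher in Middle and 1.43 for those higher in Base. A log2 fold of at least 3 was found for 7 genes higher in Middle and 6 higher in Base. None of these genes separated the places fully: in each, the ranges of the Middle and the Base cells overlapped.

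**Figure D1:**
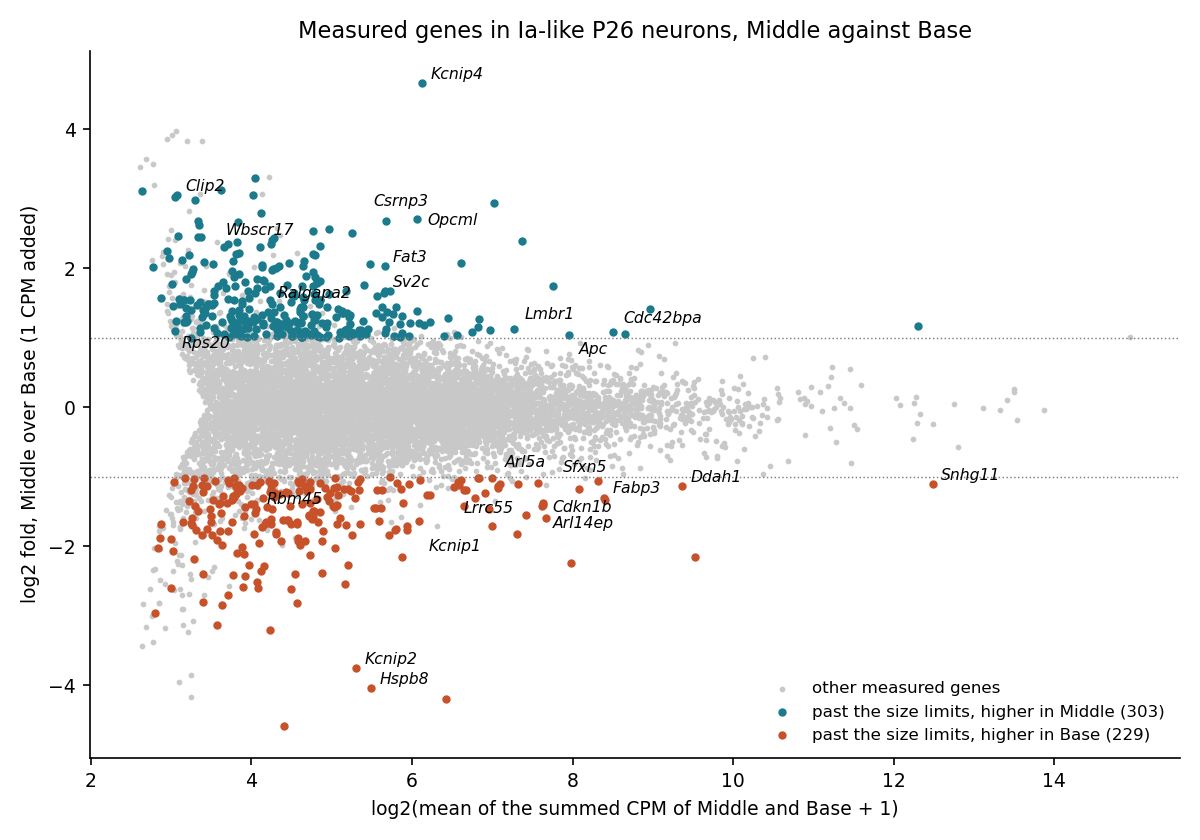
Each point is a gene. The x axis gives the log2 of the mean summed CPM of both places plus 1, and the y axis the log2 fold of Middle over Base with 1 CPM added. Teal points met the size limits as higher in Middle (303) and orange points as higher in Base (229), and dotted lines mark a log2 fold of 1 in each direction. Among the labelled genes Kcnip4 lies farthest up at 4.67, and Hspb8 and Kcnip2 lie far down at -4.04 and -3.76.

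Kcnip4 (chr5:48389502-49524907, minus strand) was summed to 133.3 CPM (130.3 to 136.3) in Middle and 4.28 CPM (3.75 to 4.87) in Base cells, 31.1-fold higher, a log2 fold of 4.67. Over cells its lowest, median and highest values were 0, 74.7 and 341 CPM in Middle and 0, 0 and 89.2 CPM in Base. It had a count in 20 of 24 Middle cells (83.3%, exact Clopper-Pearson 95% interval 62.6 to 95.3%) and in 3 of 18 Base cells (16.7%, 3.58 to 41.4%). This interval, here and below, takes cells as independent draws, which cells of the same mouse may not be. It describes the cells at hand and is no test between the places. The Middle cell was higher in 87.96% of pairs, and 11 Middle cells lay above the highest Base cell. The ranges overlapped: 4 Middle cells had no count and the one titled 11 had 7.70 CPM, while the 3 Base cells with a count had 3.73, 10.1 and 89.2 CPM. The last, titled 360, carried most of the Base counts. Exons of Kcnip4 overlap the opposite-strand genes 5730480H06Rik and Gm20700 in GENCODE M21, and reads from these could not be told apart, as no strand setting is given in the sources used here.

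The other KChIP genes went the opposite way. Kcnip1 (chr11:33629339-33993152) was at 58.6 CPM (56.6 to 60.6) in Middle and 193.9 CPM (190.2 to 197.7) in Base cells, a log2 fold of -1.71. All 18 Base cells had it, at 29.9 to 506 CPM with a median of 185.1, and 19 of 24 Middle cells, up to 142.7 CPM with a median of 38.1. Base and Middle overlapped, but 12 Base cells lay above every Middle cell and 10 Middle cells below every Base cell. The log2 fold of Kcnip1 was -0.67 within the spike-in range that both places hold.

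Kcnip2 (chr19:45791839-45816061) was at 4.46 CPM (3.93 to 5.05) in Middle and 72.8 CPM (70.5 to 75.1) in Base cells, 16.3-fold higher in Base. It was found in 4 of 24 Middle cells (16.7%, 4.74 to 37.4%), none above 59.7 CPM, and in 13 of 18 Base cells (72.2%, 46.5 to 90.3%), with a median of 43.6 and a highest value of 343 CPM. In Base it was uneven: 67.9 CPM in the 8 cells titled 357 to 395, 113.03 CPM in the 6 titled 541 to 556 and 19.2 CPM in the 4 titled 464 to 467. No label ties these title numbers to mice or preparations. Within the spike-in range that both places hold, 1.57 to 2.77%, the direction was lost: 11 Middle cells had 5.98 CPM and 3 Base cells, all of the run 464 to 467, had 3.03 CPM.

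Kcnip3 (chr2:127456498-127522094), which is also known as a calcium-dependent repressor of transcription, was at 4.36 CPM (3.83 to 4.93) in Middle and 21.8 CPM (20.6 to 23.1) in Base cells. It had a count in 9 of 24 Middle and 13 of 18 Base cells, and 5 Base cells exceeded the highest Middle cell, which had 28.5 CPM. Per kilobase of exon, which allows genes to be set side by side, Kcnip4 led in Middle cells with 36.7 CPM per kb, before Kcnip1 with 9.45, Kcnip2 with 1.28 and Kcnip3 with 1.23. In Base cells Kcnip1 led with 31.3 CPM per kb, then came Kcnip2 with 20.9, Kcnip3 with 6.15 and Kcnip4 with 1.18.

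**Figure D2:**
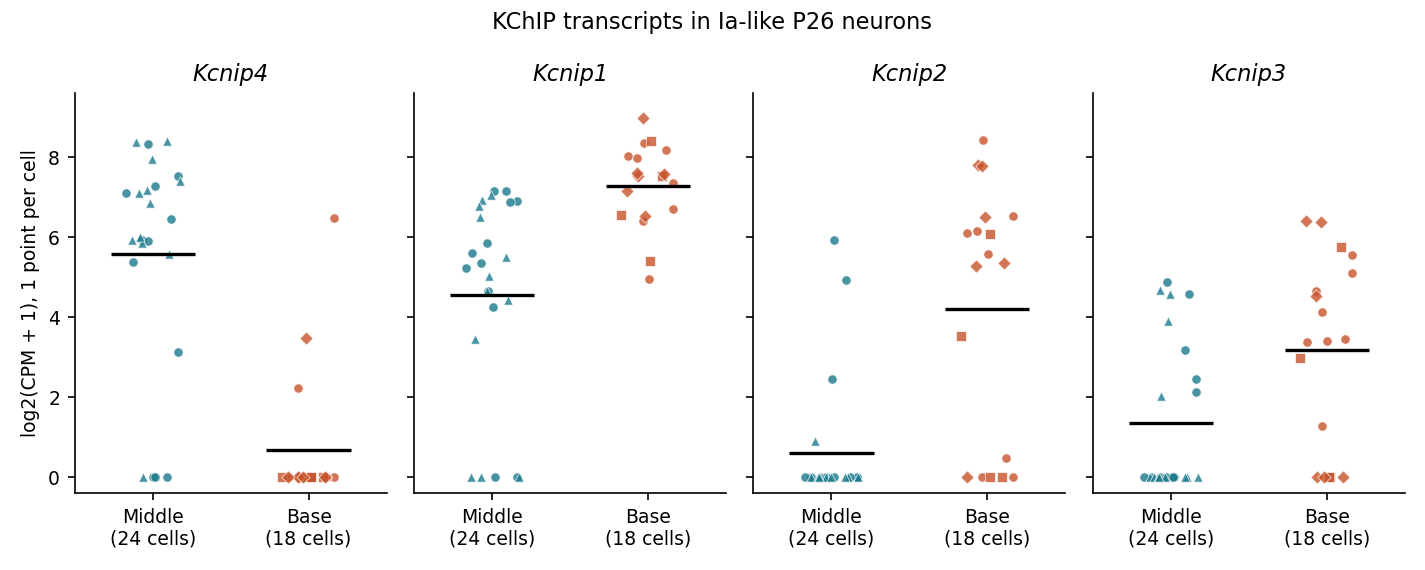
Each point is 1 Ia-like P26 cell, the y axis is log2(CPM + 1), and the black line is the mean over the cells of a place. In Middle, circles are cells titled up to 100 and triangles those above. In Base, circles are titles 357 to 395, squares 464 to 467 and diamonds 541 to 556. Kcnip4 is present in 20 of 24 Middle and 3 of 18 Base cells, whereas all 18 Base cells have Kcnip1.

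The KChIP genes also differed in how they met in single cells. Of 24 Middle cells, 19 had Kcnip4 without Kcnip2, 3 Kcnip2 without Kcnip4, 1 both and 1 neither. Of 18 Base cells, 1 had Kcnip4 without Kcnip2, 11 Kcnip2 without Kcnip4, 2 both and 4 neither. The 4 Middle cells without Kcnip4 are those titled 10, 90, 99 and 103. The cells 90 and 99 had the highest Kcnip2 of the Middle, at 29.6 and 59.7 CPM, and also the highest Kcnip1, at 142.7 and 141 CPM. A cell without a count may still carry a few transcripts, so these are counts of detection.

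The channels that KChIPs join were sparse. Kcnd1, which encodes Kv4.1, was at 18.2 CPM in Middle and 37.98 CPM in Base cells, with counts in 14 and 13 cells, and did not meet the limits. Kcnd2 and Kcnd3, which encode Kv4.2 and Kv4.3, had no count in any of the 42 cells, which allows up to 0.0527 CPM in Middle and 0.0554 CPM in Base by 3 counts of the summed total. The other P26 cells had Kcnd2 at 5.76 CPM in Middle and 11.4 CPM in Base, and Kcnd3 at 27.1 CPM in Base, there in 3 cells. The 3 Kcnd genes were chosen after their values had been seen.

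In the whole list of 47 potassium channel genes, 21 were measured, of which 4 met the limits as higher in Middle, 3 as higher in Base and 14 in neither direction. Of all measured genes, 3.46% met the limits as higher in Middle and 2.62% as higher in Base. These shares belong beside each list count that follows. The median log2 fold of the 21 was -0.017, the same as over all measured genes. Beside Kcnip4, the genes higher in Middle were Kcns3, a silent subunit that modifies Kv2 channels, at 52.5 and 8.08 CPM; Kcnab1, a cytoplasmic subunit that speeds inactivation of Kv1 channels, at 42.8 and 11.64 CPM; and Kcnh5, an ether-à-go-go channel, at 34.7 and 13.3 CPM. Kcns3 had a count in 16 of 24 Middle and 4 of 18 Base cells, and 9 Middle cells exceeded the highest Base cell. Kcnab1 overlapped more, since 1 Base cell with 161.1 CPM lay above all Middle cells. The abundant channels of fast-firing auditory neurons did not meet the limits: Kcna1 was at 1047 and 807 CPM, Kcna2 at 401 and 309 CPM and Kcnc1 at 304 and 188 CPM in Middle and Base.

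Hspb8 (chr5:116408491-116422864, minus strand) was at 4.15 CPM (3.63 to 4.71) in Middle and 83.6 CPM (81.1 to 86.03) in Base cells, 20.2-fold higher in Base. Its lowest, median and highest cells were 0, 0 and 43.6 CPM in Middle and 0, 70.02 and 224.2 CPM in Base. It had a count in 5 of 24 Middle cells (20.8%, 7.13 to 42.2%) and in 17 of 18 Base cells (94.4%, 72.7 to 99.9%), and the Middle cell was higher in 6.83% of pairs, the lowest share of any gene that met the limits. Of the Base cells, 11 lay above every Middle cell. The highest, at 224.2 CPM, was the cell titled 372, which also held the most Calb1. By title, Base cells had 117.8 CPM (357 to 395), 32.6 CPM (464 to 467) and 59.0 CPM (541 to 556), each above the Middle level. In the list of 17 heat shock and unfolded protein genes, which does not hold Hspb8, 14 were measured and 1 met the limits: Dnajb1, a co-chaperone of Hsp70, at 62.6 CPM in Middle and 155.7 CPM in Base. The log2 fold of Dnajb1 was -0.22 within the spike-in range of both places and -0.34 among cells with Y-linked transcripts.

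The other genes that led in Base were present in nearly every cell of both places and differed in level. Ddah1, an enzyme that degrades an inhibitor of nitric oxide synthase, was at 414 CPM (409 to 420) in Middle and 907 CPM (899 to 915) in Base. Its cells ran from 153.1 to 755 CPM with a median of 381 in Middle and from 244 to 1758 CPM with a median of 912 in Base, and 14 of 18 Base cells exceeded the highest Middle cell. The Base cells titled 541 to 556 were lower, at 534 CPM against 1087 and 1043 CPM in the other runs. Cdkn1b, the cyclin-dependent kinase inhibitor p27, was at 106 and 284 CPM, and here the run 541 to 556 was the highest, with 457 CPM against 213 and 191 CPM.

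Arl14ep was at 108.8 CPM in Middle and 285 CPM in Base cells. Arl5a, a small GTPase of the Golgi, was at 100.2 and 216 CPM. Fabp3, a fatty acid binding protein, was at 194 and 478 CPM, and its exons overlap Gm10570 and Zcchc17 on the other strand. Sfxn5, a mitochondrial carrier, was at 120 and 256 CPM. Lrrc55, a subunit that makes BK potassium channels easier to open, was at 107 and 286 CPM. Its exons overlap Gm13713 and Gm13716 on the other strand. Within the spike-in range of both places the log2 fold was -0.19 for Lrrc55 and -0.45 for Arl5a, and among cells with Y-linked transcripts it was -0.30 for Lrrc55. The long non-coding RNA Snhg11 was the most abundant, at 3644 and 7820 CPM, and the RNA-binding protein Rbm45 one of the least, at 17.8 and 40.8 CPM. For the 12 genes that led in Base, which include Kcnip1 and Kcnip2, the Middle cell was higher in 6.83 to 18.3% of pairs.

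Among the genes that led in Middle, Wbscr17 and Kcnip4 had the highest shares of pairs. Wbscr17, an enzyme of the family that starts O-linked glycans and listed as Galnt17 in GENCODE (chr5:130872082-131308497), was at 45.6 CPM (43.9 to 47.4) in Middle and 7.01 CPM (6.33 to 7.75) in Base. All 24 Middle cells had it, from 3.24 to 236 CPM with a median of 35.6, and 13 of 18 Base cells, up to 43.7 CPM with a median of 1.20. The Middle cell was higher in 88.7% of pairs. Within the spike-in range of both places Wbscr17 was at 26.4 CPM in Middle and 16.5 CPM in Base, a log2 fold of 0.65. Csrnp3, a nuclear protein, was at 87.2 and 12.7 CPM, with counts in 23 of 24 and 10 of 18 cells, and 10 Middle cells exceeded the highest Base cell. An opposite-strand gene, Gm13619, overlaps its exons.

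Several of these genes encode proteins of the cell surface or the cytoskeleton. Opcml, a GPI-anchored adhesion protein of the IgLON family, was at 115.3 CPM in Middle and 16.8 CPM in Base, with counts in 22 and 7 cells. Fat3, a giant protocadherin, was at 80.3 and 18.9 CPM, in 23 and 10 cells. Clip2, a linker of microtubules, was low in both places at 13.98 and 0.812 CPM, in 22 and 7 cells, and Gm42884 overlaps it. Cdc42bpa, a kinase downstream of Cdc42, was at 494 and 232 CPM, and 12 Middle cells lay above every Base cell; Coq8a and Gm38331 overlap it. Apc, which holds beta-catenin low and binds microtubules, was at 332 and 161.8 CPM, Lmbr1 at 210.6 and 95.9 CPM and Ralgapa2, an activator of the GTPase of Ral, at 69.3 and 27.5 CPM, with A930019D19Rik on the other strand. The ribosomal protein gene Rps20 was at 18.5 and 7.40 CPM. Within the spike-in range of both places the log2 fold of Apc was 0.25, and with Calb2 from 3000 CPM on that of Rps20 was 0.23. Ribosomal protein genes have many near-identical pseudogenes, so this count is uncertain, and it was the only one of 40 measured ribosomal protein genes past the limits.

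**Figure D3:**
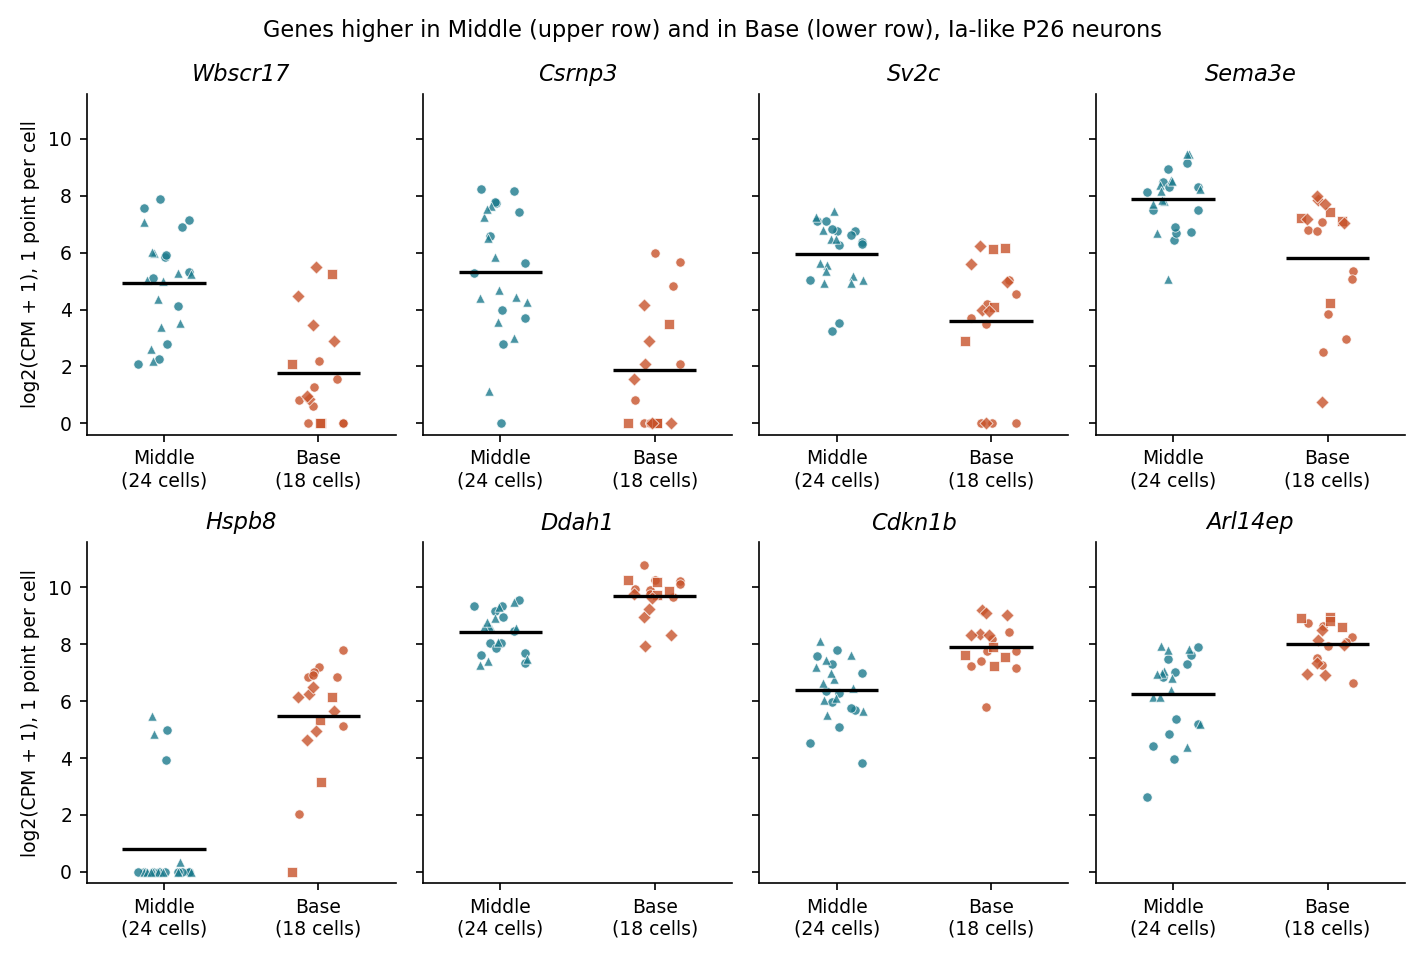
Each point is 1 Ia-like P26 cell, the y axis is log2(CPM + 1), and the black line is the mean over the cells of a place. Symbols are as for the KChIP genes: circles and triangles for Middle titles up to 100 and above, circles, squares and diamonds for Base titles 357 to 395, 464 to 467 and 541 to 556. The upper row shows genes higher in Middle and the lower row genes higher in Base, and Hspb8 is detected in 5 Middle and 17 Base cells.

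Of 29 synaptic vesicle and release genes, 25 were measured and 1 met the limits: Sv2c, a vesicle protein that binds synaptotagmin, at 76.2 CPM (73.97 to 78.5) in Middle and 23.1 CPM (21.9 to 24.5) in Base. Its Middle cells ran from 8.53 to 176.3 CPM with a median of 80.0, its Base cells from 0 to 74.3 CPM with a median of 15.4, and 14 Middle cells lay above every Base cell. The log2 fold of Sv2c was 0.67 within the spike-in range of both places. Its relative Sv2b stood the other way, at 207.1 and 386 CPM, a log2 fold of -0.90 that did not meet the limits; it was chosen after its value had been seen, and 1500012K07Rik overlaps it. The core release machinery was level: Snap25 was at 11262 and 10486 CPM, Cplx1 at 2159 and 2236 CPM, and the list's median log2 fold was 0.07.

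On the receiving side, 12 of 37 glutamate receptor and postsynaptic genes were measured. Shank1, a scaffold of the postsynaptic density, met the limits at 82.97 CPM in Middle and 169.5 CPM in Base; its Base cells were even, from 96.8 to 211.1 CPM, while Middle cells ran from 15.5 to 248 CPM, and 1700008O03Rik overlaps it. Homer2, another scaffold, was at 36.4 and 121.2 CPM but did not meet the limits, and was chosen after its value had been seen. The AMPA receptor subunits Gria2, Gria3 and Gria4, with log2 folds of 0.22, 0.42 and 0.88, were not past them. Among 8 measured calcium channel genes 1 met the limits, Cacna2d1, an auxiliary subunit that helps channels reach the terminal, at 20.8 CPM in Middle, in 14 of 24 cells, and 3.27 CPM in Base, in 2 of 18.

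Of 45 axon guidance genes, 19 were measured, 5 met the limits as higher in Middle, 1 as higher in Base and 13 in neither direction; the median log2 fold was 0.18, beside -0.017 over all measured genes, of which 3.46% and 2.62% met the limits. Sema3e, a secreted semaphorin that signals through plexin D1, was the most abundant, at 332 CPM (327 to 337) in Middle and 98.5 CPM (95.9 to 101.2) in Base. Every cell had it, from 32.7 to 710 CPM with a median of 284 in Middle and from 0.671 to 255 CPM with a median of 120.7 in Base, and 13 Middle cells exceeded all Base cells. Sema3d, a related semaphorin, was in 14 of 24 Middle cells and 1 of 18 Base cells, at 29.1 and 2.05 CPM. By title its difference was uneven, with a log2 fold of 0.26 for Middle cells titled up to 100. Nrp2, a semaphorin co-receptor, was at 46.2 and 18.1 CPM, with a log2 fold of 0.10 within the spike-in range of both places. The secreted Slit3 was at 10.2 and 0.295 CPM, and the netrin receptor Unc5c, which was named after its value had been seen and is overlapped by Gm15688, at 21.2 and 1.53 CPM. The ephrin Efna1 was the 1 gene higher in Base, at 6.20 and 24.4 CPM.

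Of 54 cell adhesion genes, 34 were measured, 6 met the limits as higher in Middle, 1 as higher in Base and 27 in neither direction. Of all measured genes, 3.46% and 2.62% were higher in Middle and in Base by these limits. The median log2 fold of the list was 0.09. Cdh6, a cadherin, was in 14 of 24 Middle cells and in 1 of 18 Base cells, at 16.0 and 2.12 CPM, with a log2 fold of 0.33 among cells with Xist. Lrrtm1, a postsynaptic organiser that binds neurexins, was at 42.4 and 10.9 CPM, Nrcam at 51.8 and 20.5 CPM and Ncam2 at 29.3 and 11.1 CPM, both of the latter immunoglobulin adhesion proteins. The log2 fold of Ncam2 was 0.09 and that of Lrrtm1 0.53 within the spike-in range of both places. Cntnap5a at 48.9 and 23.6 CPM and Thsd7a at 79.3 and 34.1 CPM also met the limits and were named after their values had been seen; among cells with Xist the log2 fold of Cntnap5a was 0.24. Nrxn3, a presynaptic neurexin, was the 1 gene higher in Base, at 10.2 and 26.5 CPM, with a log2 fold of -0.31 among cells with Xist, and Gm37980 overlaps it.

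Of 53 transcription factor genes, 27 were measured and 2 met the limits, both higher in Middle and both low. The share higher in Middle over all measured genes was 3.46%. Ebf3 was at 13.8 and 0.812 CPM, in 13 and 3 cells, with Gm45278 on the other strand. Esrrb, an oestrogen-related receptor, was at 11.8 and 1.68 CPM, in 14 and 5 cells, and was level within the spike-in range of both places (log2 fold -0.03). Of 18 measured morphogen and retinoid genes 1 met the limits: Fzd3, a Wnt receptor of the planar polarity pathway, at 6.32 CPM in Middle and 16.7 CPM in Base. Its log2 fold was -0.0005 against the Base cells titled up to 400 and -0.10 within the spike-in range of both places.

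Immediate early genes follow recent activity or stress. Of 20 genes, 13 were measured and 2 met the limits, both as higher in Base, beside 2.62% of all measured genes. The median log2 fold of the list was -0.45. Btg2, an antiproliferative immediate early gene, was at 269 CPM in Middle and 1206 CPM in Base, but its cells ran from 0 to 2786 CPM and from 0 to 5645 CPM, and the Middle cell was higher in 37.4% of pairs. Nr4a1, an orphan nuclear receptor, was at 5.08 and 28.6 CPM, in 2 of 24 and 9 of 18 cells, and its log2 fold was -0.21 with Calb2 from 3000 CPM on. Fos was at 611 and 636 CPM and Egr1 at 282 and 325 CPM, neither past the limits and both nearer to level than the list's median. Jun, Junb, Ier2 and Egr2 leaned more to Base, with log2 folds of -0.65, -0.71, -0.73 and -0.83. Fosb (0.52), Jund (0.92) and Klf4 (0.35) leaned to Middle, and none of these met the limits. From Fos on, these genes were chosen after their values had been seen. In the injury list 5 of 14 genes were measured and none met the limits, with Sox11 at 188.8 and 284 CPM, Atf3 at 118.4 and 157.03 CPM and a median log2 fold of -0.73.

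Many lists held no gene past the limits. Among 11 measured sodium and HCN channel genes the most abundant were Fgf12, at 2789 and 2807 CPM, and Scn4b, at 637 and 702 CPM. Of 10 measured calcium-binding proteins none met the limits, and Calm2 was at 2651 and 3304 CPM. Of 6 measured receptors for efferent transmitters, Glrb was at 584 and 504 CPM and Gabbr2 at 71.7 and 54.9 CPM. Of 10 growth factor genes, Lifr was at 1250 and 1083 CPM and Nrg1, overlapped by Gm26578, at 410 and 442 CPM. Map1b, at 14789 and 15146 CPM, and Nefl, at 4382 and 3977 CPM, headed the 18 cytoskeletal genes, and Aldoa, at 2126 and 2604 CPM, and Pkm, at 2004 and 1876 CPM, headed the 19 of glycolysis. Nefl overlaps Nefm and Aldoa overlaps Fam57b on the other strand. Of 9 measured mitochondrially encoded genes 1 met the limits, the ribosomal RNA mt-Rnr2, at 6995 and 3122 CPM, with a log2 fold of 0.45 within the spike-in range of both places. Gata3 and Ngfr, fixed as type II markers but present in every cell here, were at 231 and 392 CPM and at 169.5 and 292 CPM, and did not meet the limits; Gm13256 overlaps Gata3.

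The same places were then compared in the other Wildtype P26 cells, 28 of the Middle and 23 of the Base, of which 12 and 10 had at least 300 CPM of Lypd1. These are different cells, but they may come from the same mice and preparations. In them 15.8% of the 8749 genes were at least 0.5 higher in Middle on the log2 scale and 18.5% at least 0.5 higher in Base. Of the 303 genes higher in Middle among Ia-like cells, 37.95% were also higher in Middle in the other cells by 0.5 and 14.5% were higher in Base. Of the 229 higher in Base, 49.3% were also higher in Base and 9.17% higher in Middle. Of the 12 leading Middle genes 7 went the same way by this limit, and of the 12 leading Base genes 9, with none opposite.

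The KChIP genes showed cases of both kinds. Kcnip4 was at 40.3 CPM in other Middle and 19.3 CPM in other Base cells, in 12 of 28 and 7 of 23 cells. Kcnip1 was abundant in both, at 196 and 231 CPM, so that the low level of the Ia-like Middle cells had no counterpart there. Kcnip2 was at 131 and 251 CPM, in 25 of 28 and 22 of 23 cells, and Kcnip3 at 31.6 and 26.6 CPM. Hspb8 was at 113.3 and 186.9 CPM, in 22 and 21 cells. Of the 4 groups of P26 cells the Ia-like Middle cells had the lowest summed Kcnip1, Kcnip2 and Hspb8, while Sv2c (73.9 and 24.2 CPM), Sema3e (388 and 185.1 CPM) and Ddah1 (500.0 and 1256 CPM) split by place in the other cells too. Whether the log2 folds of the 2 sets of cells differ was not tested.

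**Figure D4:**
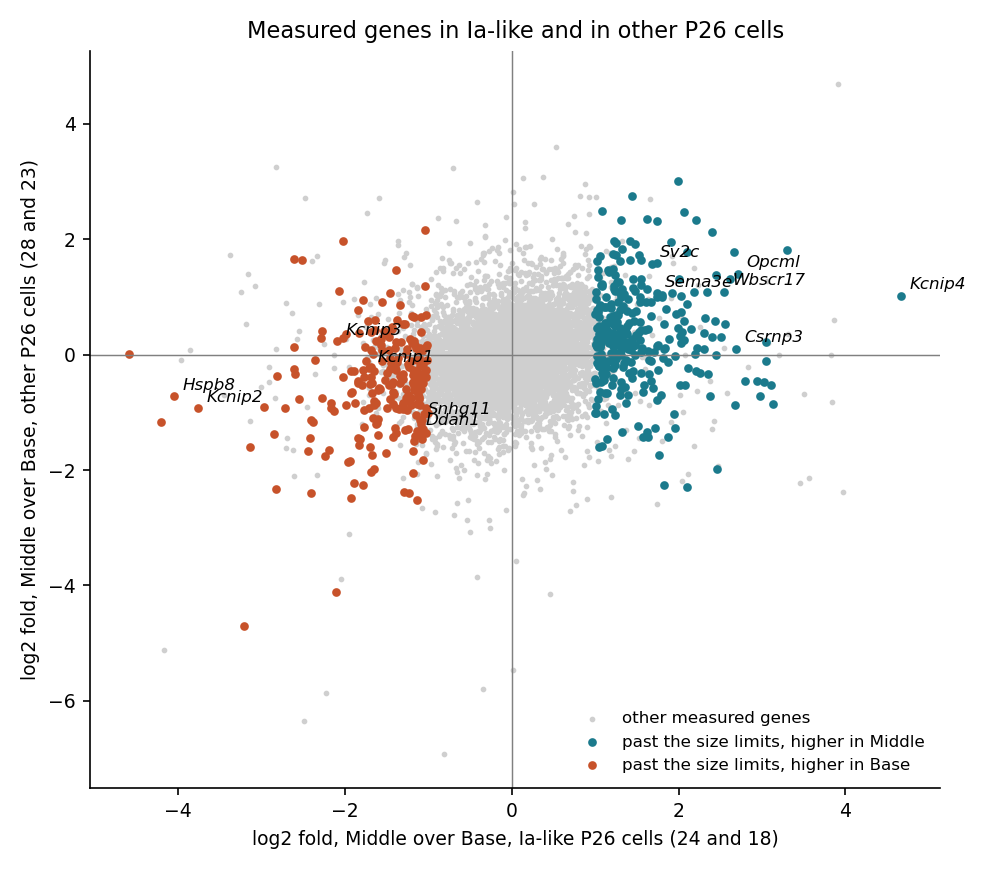
Each point is a gene. The x axis gives the log2 fold of Middle over Base in Ia-like P26 cells (24 and 18) and the y axis the same in the other Wildtype P26 cells (28 and 23), both with 1 CPM added; colours mark genes that met the size limits in the Ia-like cells. Sv2c and Sema3e lie high on the right, Ddah1 and Snhg11 low on the left, while Csrnp3 and Kcnip3 lie near 0 on the y axis.

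Cells just under the Calb2 limit bear on the same genes. With Calb2 from 3000 CPM on, 5 Middle cells and 1 Base cell were added. The 5 Middle cells had Kcnip2 at 135.8 CPM and Hspb8 at 131 CPM, against 4.46 and 4.15 CPM in the 24 Middle cells above the limit, and Kcnip4 at 86.1 CPM. With them the log2 fold was -1.43 for Kcnip2 and -1.76 for Hspb8, and 4.63 for Kcnip4.

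Ia-like cells of P27, chosen by the same limits, gave a further reading of Middle and Apex. All 14 Apex cells had Kcnip4, at 30.1 to 371 CPM with a median of 182.4, and the 4 Middle cells had it at 46.2, 75.7, 93.6 and 194 CPM. Kcnip2 had no count in the 4 Middle cells, which allows up to 0.2999 CPM, and was in 2 of 14 Apex cells, up to 31.1 CPM. Kcnip1 was summed to 54.3 CPM in Apex and 67.4 CPM in Middle. Hspb8 was in 4 of 14 Apex cells, and in the 4 Middle cells it was at 0.757, 2.91, 43.1 and 73.5 CPM. Ddah1 was at 380 and 432 CPM. For these genes the summed P27 levels of Apex and Middle lay nearer to those of P26 Middle than of P26 Base cells. Cdkn1b did not follow this order, with 141 CPM in Apex and 304 CPM in Middle cells of P27. Single cells departed from it in both places. Hspb8 was high in 2 of the P27 Middle cells and at 86.2 and 47.1 CPM in the Apex cells titled 422 and 443. Kcnip1 was at 166.3 and 170.9 CPM in the Apex cells titled 443 and 453, and the latter had the least Kcnip4, 30.1 CPM. All 18 of these P27 cells carried Xist, and the series gives no Ia-like Base cell at that age. The 1 Ia-like P26 Apex cell had Kcnip4 at 129.97 CPM and no count of Kcnip1, Kcnip2, Kcnip3 or Hspb8.

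**Figure D5:**
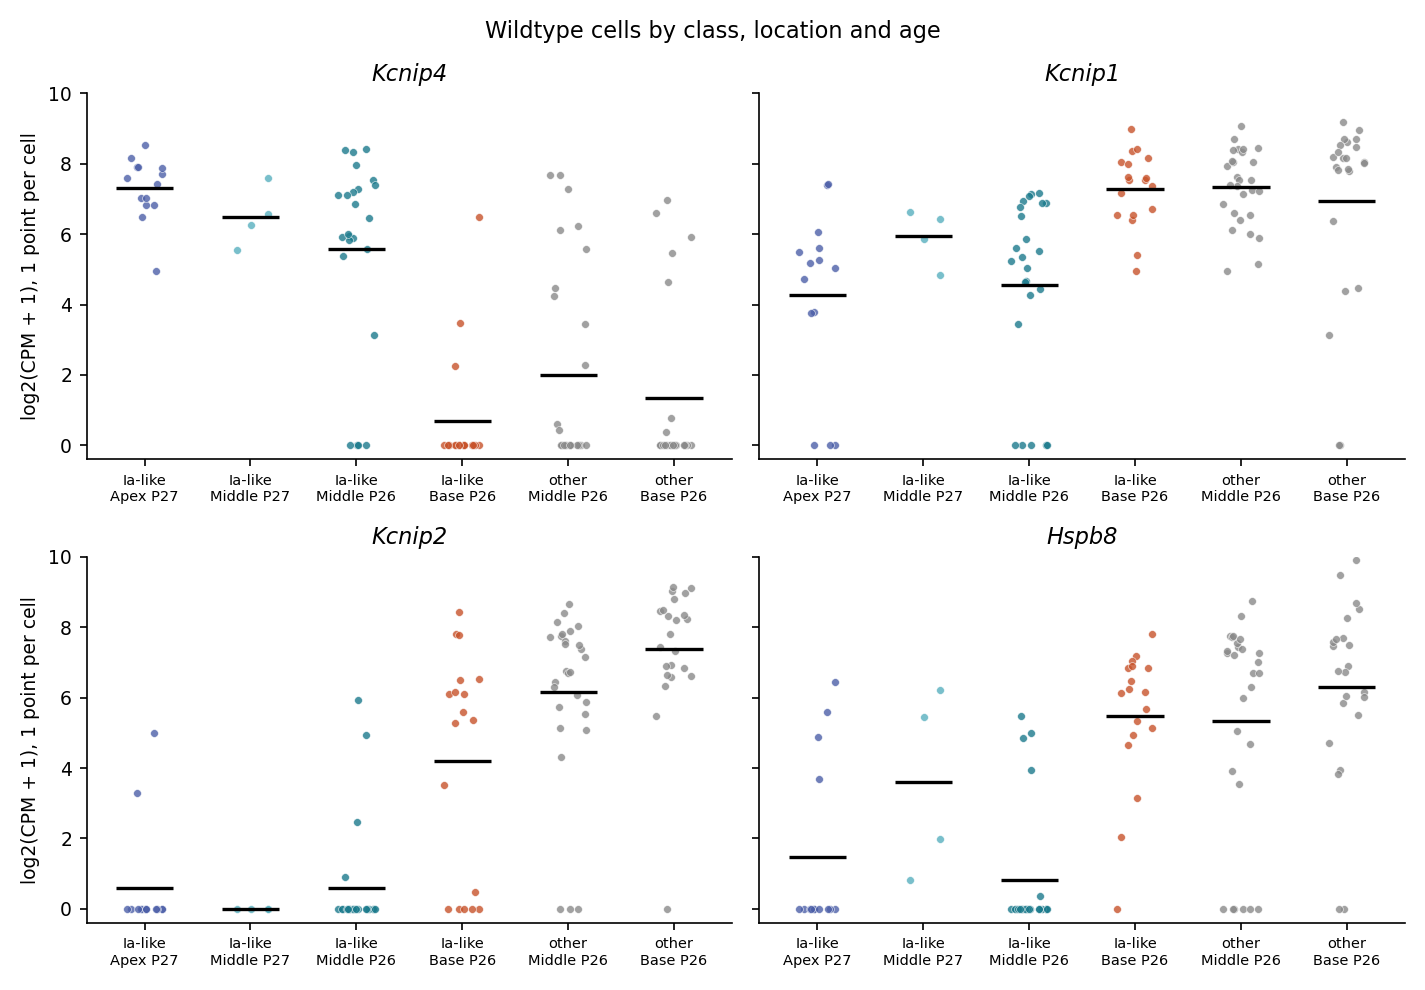
Each point is 1 Wildtype cell, the y axis is log2(CPM + 1), and the black line is the mean over the cells of a group. Groups are Ia-like cells of P27 Apex (14) and Middle (4), Ia-like cells of P26 Middle (24) and Base (18), and the other P26 cells of Middle (28) and Base (23). Kcnip4 is highest in the Apex and Middle Ia-like groups, whereas Kcnip2 and Hspb8 are high in the Base Ia-like cells and in both groups of other cells.

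The places could also be compared among cells marked by the same sex-linked transcripts. Among cells with Xist, 7 of Middle and 9 of Base, Kcnip4 was at 176.4 and 8.55 CPM, Kcnip1 at 28.7 and 246 CPM, Kcnip2 at 0.131 and 84.4 CPM, and Hspb8 had no count in Middle and was at 67.2 CPM in Base. Among cells with Y-linked transcripts, 15 and 7, Kcnip4 was at 114 CPM in Middle with no count in Base, Kcnip1 at 75.5 and 165.1 CPM, Kcnip2 at 6.77 and 72.1 CPM and Hspb8 at 4.68 and 94.5 CPM. So the 4 genes kept their side in both sexes. All 24 leading genes did so too, although a log2 fold of 1 was reached by 21 of them among Xist cells and by 15 among cells with Y-linked transcripts.

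The genes higher in Middle were also longer. Their median span from start to end was 58.8 kb, against 26.5 kb for all measured genes and 22.4 kb for those higher in Base, and the median exon length was 6.64, 4.86 and 4.34 kb. Of genes of 100 kb or more, 7.53% were higher in Middle and 2.59% higher in Base, while of genes under 10 kb 1.67% and 3.08% were. The median log2 fold went from -0.13 for genes under 10 kb to 0.11 for genes of 100 kb or more. The other P26 cells showed the same order, from -0.20 to 0.12, so this order was not limited to Ia-like cells. Its relation to spike-in share, ribosomal RNA or the state of the RNA was not tested.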

How the data were processed

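Single neurons of the spiral ganglion were read by Smart-seq2. The values used are the deposited counts per gene; CPM and log2 values were computed here from these deposited counts, with the total over 24491 genes and without 92 spike-in controls and the tdTomato row. The submitters' processing notes name STAR 2.4.0 and build mm10, and further Trimmomatic 0.33, Subread 1.4.6 with featureCounts, Seurat 1.4.0.12 and edgeR 3.14.0. The sources used here do not give the annotation, the strand setting or how multiply mapped reads were counted. A deposited table of normalized values was not used, nor were 43 columns of cells of another genotype or age.

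Members, lists and size limits were chosen with earlier results of these data known. Named are the 12 genes per side past the limits with shares of cell pairs farthest from 50%. List members past the limits follow (at most 4 per list and side), then class markers. Of a list with none, at most 2 of the most abundant members are given. Other genes were chosen after their values were seen, mostly as said in place. Kcna1, Kcna2, Kcnc1, Gria2, Gria3, Gria4, Snap25, Cplx1 and Rn45s are among them without being marked so in their paragraphs. A gene that the rule names is not reported here. The 29 lists are described by counts and medians. A cell was called by Xist or by Y-linked genes at 7 CPM of 1 and less of the other; these genes were kept apart. Gene positions and overlapping exons were taken from GENCODE M21, where 23582 genes matched by symbol, and promoter windows from RefSeq. No 2 of the 42 cells held the same values, and log2(CPM + 1) correlated by at most 0.853 between them. No doublet caller was run on these hand-picked cells. The code of the comparison was run on simulated counts with known changes in the more abundant genes, each cell drawn independently. These hold no effect of mouse, title number or spike-in share, so the run cannot speak to such effects or to genes of low level. Tools were Python 3.11.15, numpy 2.4.6, pandas 2.3.3, scipy 1.17.1, matplotlib 3.10.9 and, for TMM factors only, edgeR 4.0.16 in R 4.3.3.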

Additional observations from a re-analysis of the deposited data

How the results depend on the processing

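Of 21 alternatives, 2 (the spike-in range that both places hold, and members with less than 10 CPM of Calb1 and of Ttn) were added after the data had been seen. The 24 leading genes kept their side in all 21, except Kcnip2 within the shared spike-in range, where its log2 fold was 0.79 with 3 Base cells. Of the other named genes past the limits, Esrrb (-0.032) and Cpne6 (0.82) changed side there. All 24 reached a log2 fold of 1 with TMM, median-ratio and non-mitochondrial scaling, with equal weight per cell and with cells thinned to 651345 counts; 14 of them did within the shared spike-in range. The share of the 8749 measured genes past the limits moved by over 1.5 times under these settings. It was 1.57% higher in Middle and 1.2% in Base with 5 CPM added, 0.72% and 0.812% at a minimum of 50 CPM, and 0.32% and 0.16% with a limit of 2 on both log2 measures. With fewer cells it was larger: 6.66% and 8.85% among cells with Xist, 9.30% and 4.78% among cells with Y-linked transcripts, and 14.9% and 8.47% within the shared spike-in range. It was 8.50% higher in Middle against Base cells titled up to 400, and 4.34% and 4.68% higher in Base for Middle cells titled up to 100 and above. These settings test fewer genes, ask for larger folds or hold fewer cells by construction. No paired analysis was possible because no label ties a Middle cell to a Base cell of the same mouse or preparation. Levels of a few CPM rest on few cells.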

Other observations

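Cpne6, a calcium-dependent phospholipid-binding protein of neurons, had 1 of the largest contrasts but a lower share of pairs than the leading genes, so it was chosen after its values had been seen. It was summed to 7.82 CPM (7.11 to 8.58) in Middle and 161.4 CPM (158.1 to 164.8) in Base Ia-like cells. Middle cells ran from 0 to 39.2 CPM and Base cells from 0 to 787 CPM with a median of 24.3, and 8 of 24 and 12 of 18 cells had a count. In the other P26 cells it was at 207.4 and 467 CPM. Within the shared spike-in range 11 Middle cells had 7.49 CPM and 3 Base cells 3.82 CPM.

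Nrp1, a co-receptor of secreted semaphorins, was at 31.1 CPM in Middle and 71.7 CPM in Base cells, whereas its relative Nrp2 was at 46.2 and 18.1 CPM. Nrp1 had a count in 12 of 24 and 15 of 18 cells, missed the limits once the top cells were left out (a log2 fold of -0.97), and was chosen after its value had been seen. In the other P26 cells Nrp1 was at 52.5 and 46.8 CPM. Its log2 fold in the Ia-like cells was 3.76 within the shared spike-in range, the opposite side, with 3 Base cells.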
